A study of Mus musculus with 12 samples.

Results

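The 47 genes described here encode the structural proteins of the cornified envelope, the protein shell of a terminally differentiated keratinocyte, and were measured by RNA sequencing in 12 primary tumours of mice. They were taken by name from the 56860 genes of the count table: every Lce gene and every Sprr gene with a number, together with Lor, Flg, Flg2, Ivl, Hrnr, Rptn, Tchh, Tchhl1 and Crnn. By family they are 14 Lce1 genes, 6 Lce3 genes, Lce6a, 13 Sprr2 genes, 4 genes of the Sprr1, Sprr3 and Sprr4 types, 7 S100-fused type genes, and Lor with Ivl. All 47 matched a RefSeq gene of mouse chromosome 3, where they span 1.39 Mb on GRCm38.p6, and 2 of them, Sprr2c-ps and Sprr2j-ps, are named as pseudogenes. Every mouse carried MMTV-PyMT, in which a mouse mammary tumour virus promoter drives polyoma middle T in the mammary epithelium and gives rise to carcinomas, and tumours were collected at 4.5 months. C3_KO tumours came from MMTV-Cre;C3Tdt:MMTV-PyMT mice, with an allele of complement component C3 that the labels call C3Tdt. S1pr1_KO tumours came from MMTV-Cre;S1pr1fl/fl; MMTV-PyMT mice, with floxed alleles of the sphingosine-1-phosphate receptor S1pr1. WT tumours were MMTV-Cre; MMTV-PyMT per the design text, although their strain label reads MMTV-PyMT alone. Each genotype had 4 libraries. Cre under the MMTV promoter acts mainly in mammary epithelium and is also known to act in some skin, salivary gland and blood cells, and cells that it does not reach keep the targeted gene. Recombination by cell type was not measured in these whole tumours.

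When a keratinocyte cornifies, transglutaminases cross-link precursor proteins beneath its plasma membrane. Involucrin is laid down early, loricrin forms much of the finished envelope, small proline-rich (SPRR) proteins bridge the other precursors, and late cornified envelope (LCE) proteins are added last. The S100-fused type proteins, among them filaggrin, hornerin and trichohyalin, carry an S100-type calcium-binding domain ahead of long repeats and bind or embed keratin filaments. The genes lie side by side in the epidermal differentiation complex. The ducts of a normal mammary gland do not cornify, whereas epidermis, hair follicles and squamous areas of tumours do.

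Total counts per library, in units of 1000000 counts, ran from 237.1 to 424.6 in C3_KO, from 230.4 to 380.3 in S1pr1_KO and from 327.1 to 484.0 in WT. Levels are given as CPM, counts per 1000000 counts of a library total after TMM scaling, and 3 counts correspond to 0.00613 to 0.0136 CPM depending on the library. The targeted genes were read first as a check of the labels. C3 stood at 47.8, 74.5, 41.6 and 75.1 CPM in C3_KO, against 182, 89.2, 90.3 and 43.3 CPM in WT. S1pr1 stood at 5.75, 7.43, 2.59 and 2.80 CPM in S1pr1_KO, against 6.87, 8.02, 2.88 and 3.05 CPM in WT. Both ranges overlapped, so that whole-tumour RNA does not tell a knockout library from a WT library by its target.

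The envelope genes were dominated by a pair of tumours, 1 in each knockout group. Summed over the 47 genes, their level was 47.2, 7.80, 648 and 60.15 CPM in C3_KO replicates 1 to 4. It was 17.7, 9.30, 510.5 and 8.935 CPM in S1pr1_KO replicates 1 to 4, and 67.7, 23.2, 34.5 and 62.0 CPM in WT replicates 1 to 4. C3_KO replicate 3 alone held 43.3% of the sum over the 12 libraries and S1pr1_KO replicate 3 held 34.1%, while the other 10 libraries lay between 7.80 and 67.7 CPM. The number of envelope genes with at least 1 count was 36, 28, 46 and 35 in C3_KO, 28, 19, 44 and 29 in S1pr1_KO, and 31, 35, 29 and 38 in WT. The highest library was C3_KO replicate 3 for 41 of the 47 genes and S1pr1_KO replicate 3 for 5 (Tchh, Tchhl1, Crnn, Sprr1a and Sprr4). Sprr3 was the exception, with its highest value of 0.0169 CPM in C3_KO replicate 2. For 35 of the 47 genes these same 2 libraries were the highest and second highest of all 12. In whole tumours, fewer cells of a type and less RNA per cell cannot be told apart.

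**Figure D1:**
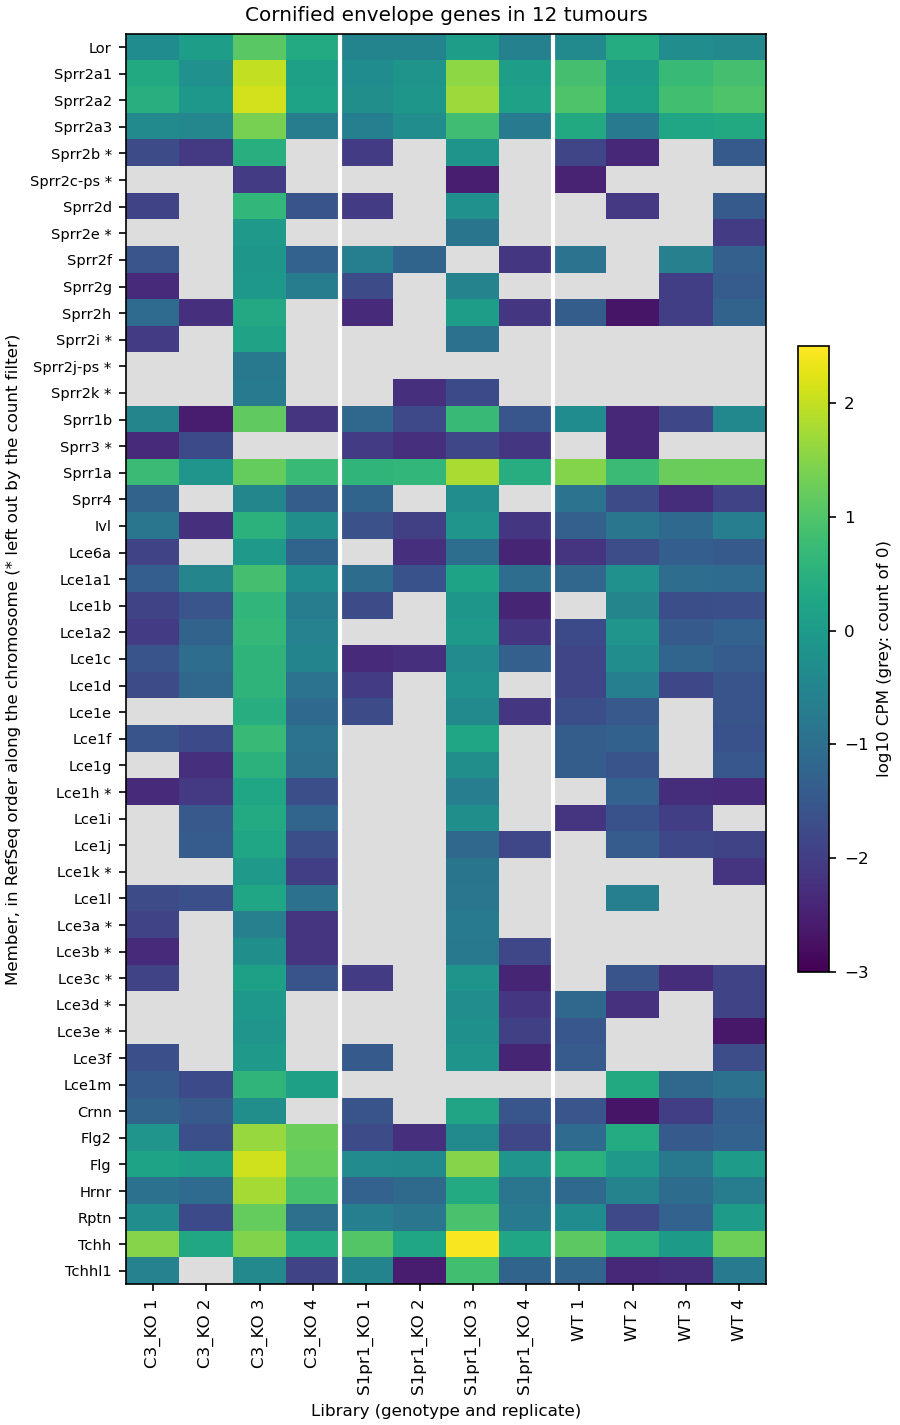
Level of each of the 47 cornified envelope genes (rows, in RefSeq order on chromosome 3) in the 12 tumour libraries (columns), as log10 CPM by colour, with grey for a count of 0 and an asterisk for genes left out by the count filter. The columns of C3_KO replicate 3 and S1pr1_KO replicate 3 are brighter than the other 10 along nearly the whole cluster, and the Lce1m row is grey in all 4 S1pr1_KO libraries.

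No envelope gene passed the test between genotypes with all 12 libraries. In all, 33 of the 47 passed edgeR's filter on low counts and entered the tests beside the other genes, 30660 genes in total. The 14 left out were Lce1h, Lce1k, Lce3a to Lce3e, Sprr2b, Sprr2c-ps, Sprr2e, Sprr2i, Sprr2j-ps, Sprr2k and Sprr3. The filter used all 12 libraries, so a gene could enter a comparison through libraries of the genotype outside it. In fits of only the 2 genotypes compared, 29 envelope genes passed the filter for C3_KO against WT. For S1pr1_KO against WT 17 passed, and for S1pr1_KO against C3_KO 20 passed. Counts of fold changes above or below 0 therefore rest partly on genes kept by the high libraries. edgeR's quasi-likelihood test with Benjamini-Hochberg adjustment called 0 of 33 at an adjusted p under 0.05 for C3_KO against WT, where it called 0.0% of all genes tested. It also called 0 of 33 for S1pr1_KO against WT (background 0.0%) and 0 of 33 for S1pr1_KO against C3_KO (background 0.0%). The comparisons with WT share the 4 WT libraries, so their results are not independent.

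The filaggrin-type genes were high in 2 C3_KO tumours rather than in 1. Flg encodes profilaggrin, whose processed units aggregate keratin filaments. Its level was 1.55, 1.17, 126.5 and 16.1 CPM in C3_KO, 0.455, 0.416, 31.75 and 0.728 CPM in S1pr1_KO, and 3.33, 0.939, 0.169 and 1.11 CPM in WT. All 4 C3_KO libraries lay above 3 of the 4 WT libraries, but WT replicate 1 exceeded 2 of them. The log2 fold change of Flg in C3_KO over WT was 4.71 (SE 1.93), which did not pass (edgeR adjusted p = 0.7646), and it was 2.18 without C3_KO replicate 3.

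Hrnr encodes hornerin, a filaggrin relative of the upper epidermis. It stood at 0.1105, 0.0845, 57.0 and 8.13 CPM in C3_KO, 0.0546, 0.0811, 2.305 and 0.145 CPM in S1pr1_KO, and 0.0775, 0.290, 0.0872 and 0.204 CPM in WT. C3_KO replicates 3 and 4 were above every WT library, and C3_KO replicates 1 and 2 lay inside the WT range. Hrnr had the smallest p of the 33 genes in C3_KO over WT, with a log2 fold change of 6.62 (SE 2.08, edgeR adjusted p = 0.7646), and it was the single envelope gene that DESeq2 called there (6.68, adjusted p = 0.0156). Without C3_KO replicate 3 its edgeR log2 fold change was 4.06 (SE 1.64, adjusted p = 0.8871).

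Flg2 encodes filaggrin-2, a further filaggrin relative. Its level was 0.747, 0.0225, 45.8 and 18.2 CPM in C3_KO, 0.0182, 0.00541, 0.418 and 0.0149 CPM in S1pr1_KO, and 0.0846, 2.41, 0.0370 and 0.0532 CPM in WT. The order of libraries differed from that of Flg: S1pr1_KO replicate 3, which was second highest for Flg, held less Flg2 than C3_KO replicate 1 and WT replicate 2. Between these knockouts the log2 fold change of Flg2 was -7.12 in S1pr1_KO over C3_KO (SE 2.42, edgeR adjusted p = 1.0), and DESeq2 called it lower (-7.12, adjusted p = 0.0280). DESeq2 also called Lce1m lower in that comparison, while no other envelope gene was called there.

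Rptn encodes repetin, and Crnn encodes cornulin, a protein of squamous epithelia best known from the oesophagus. Rptn was 0.506, 0.0169, 16.03 and 0.110 CPM in C3_KO, 0.2365, 0.146, 8.31 and 0.1895 CPM in S1pr1_KO, and 0.472, 0.0163, 0.0529 and 1.12 CPM in WT. Crnn was 0.0575, 0.0338, 0.513 and 0 CPM in C3_KO, 0.0273, 0, 1.66 and 0.0297 CPM in S1pr1_KO, and 0.0282, 0.00204, 0.0106 and 0.0443 CPM in WT. Outside the 2 high libraries both genes overlapped across all 3 genotypes, and the log2 fold change of Crnn in S1pr1_KO over WT, 4.32 (SE 1.94, edgeR adjusted p = 0.3159), became -0.15 without S1pr1_KO replicate 3.

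Trichohyalin stood apart from the filaggrin-type genes. Tchh encodes trichohyalin, which hardens the inner root sheath and medulla of the hair follicle, and Tchhl1 encodes the trichohyalin-like protein next to it, 19.7 kb away. Tchh was 31.6, 1.96, 28.3 and 2.598 CPM in C3_KO, 10.48, 1.81, 281.4 and 1.78 CPM in S1pr1_KO, and 13.2, 3.33, 0.970 and 19.5 CPM in WT. Tchhl1 was 0.270, 0, 0.380 and 0.0137 CPM in C3_KO, 0.300, 0.00270, 7.01 and 0.0594 CPM in S1pr1_KO, and 0.0634, 0.00408, 0.00529 and 0.193 CPM in WT. Both peaked in S1pr1_KO replicate 3, and C3_KO replicate 4, the second highest library for Flg2 and Hrnr, was below 3 of the 4 WT libraries for Tchh. The log2 fold change in S1pr1_KO over WT was 3.00 for Tchh (SE 1.65, edgeR adjusted p = 0.3961) and 4.79 for Tchhl1 (SE 2.12, edgeR adjusted p = 0.3094). Without S1pr1_KO replicate 3 they were -0.94 for Tchh and 0.88 for Tchhl1.

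**Figure D2:**
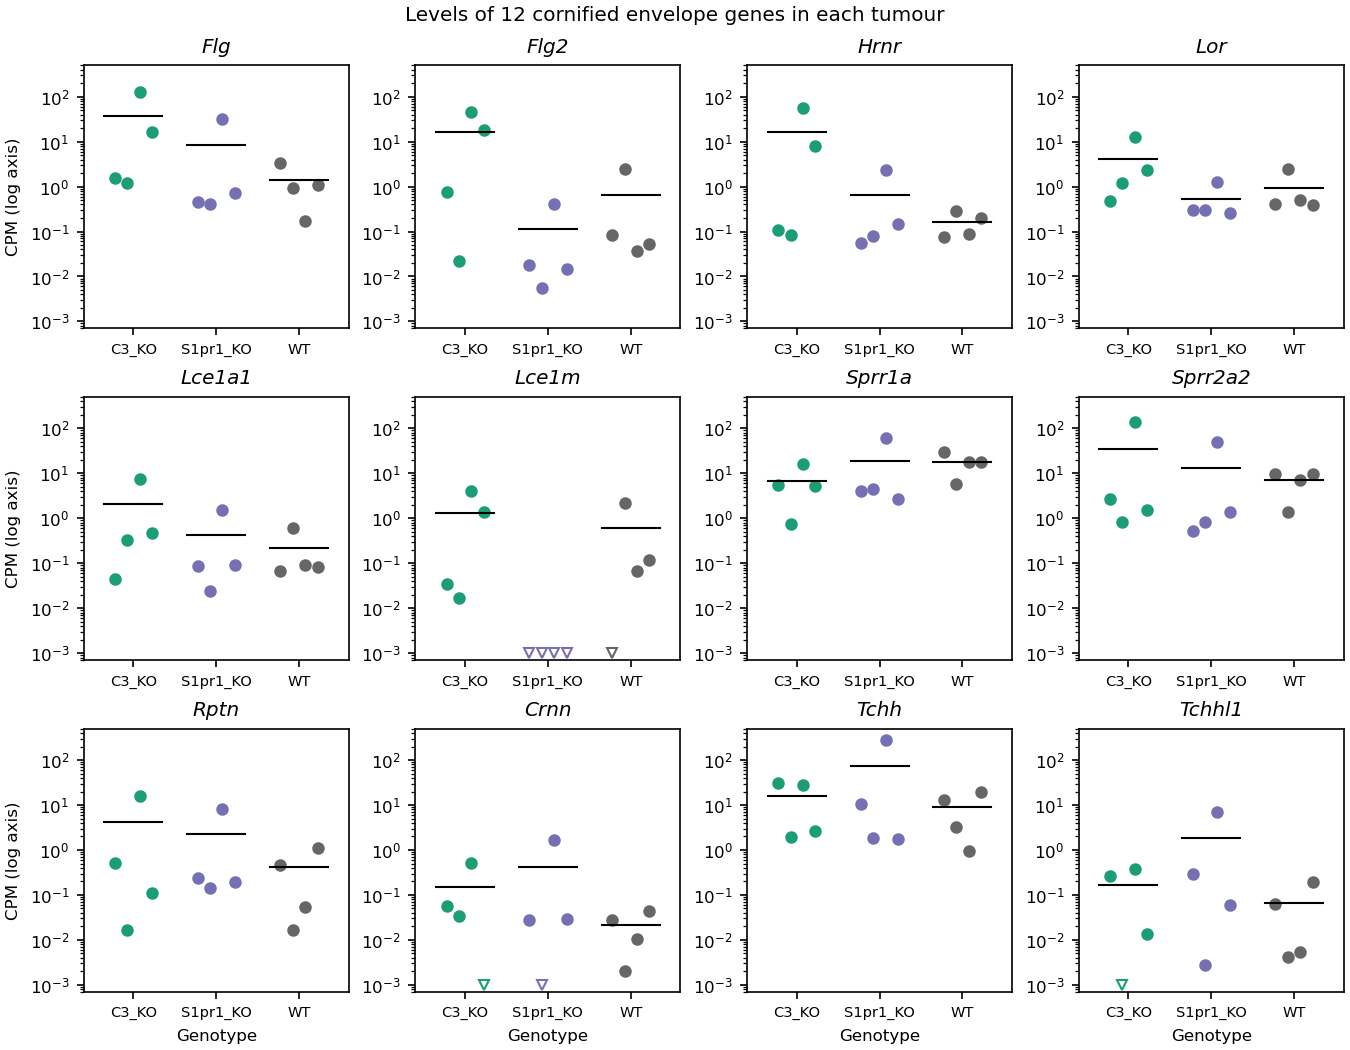
CPM of 12 envelope genes in each tumour on a log axis, by genotype, with a dot per library, a black bar at the mean of the 4 libraries and an open triangle at the bottom for a count of 0. In most panels a single S1pr1_KO dot lies far above the rest of its group and sets the mean, and in several a single C3_KO dot does. Flg, Flg2, Hrnr and Lce1m have a second high C3_KO dot, and Tchh and Tchhl1 have a pair of C3_KO dots at similar heights. All 4 Lce1m values of S1pr1_KO are triangles.

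Loricrin and involucrin, the late and the early envelope precursor, had at least 1 count in every library, though Ivl had only 2 counts in C3_KO replicate 2 and 2 in S1pr1_KO replicate 4. Lor was 0.471, 1.22, 12.7 and 2.33 CPM in C3_KO, 0.296, 0.305, 1.24 and 0.256 CPM in S1pr1_KO, and 0.405, 2.501, 0.502 and 0.385 CPM in WT. Ivl was 0.144, 0.00563, 3.40 and 0.531 CPM in C3_KO, 0.0227, 0.0108, 0.7255 and 0.00743 CPM in S1pr1_KO, and 0.0493, 0.143, 0.0766 and 0.226 CPM in WT. For Lor, 3 of the 4 S1pr1_KO libraries lay below every C3_KO and every WT library, and the fourth, replicate 3, lay inside both ranges. The log2 fold change of Lor in S1pr1_KO over C3_KO was -2.99 (SE 1.02, edgeR adjusted p = 1.0) and -1.35 without C3_KO replicate 3.

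The late cornified envelope genes were low almost everywhere. The 14 Lce1 genes summed to 0.1945, 0.710, 47.7 and 3.30 CPM in C3_KO, 0.136, 0.0297, 8.23 and 0.175 CPM in S1pr1_KO, and 0.2255, 5.08, 0.330 and 0.450 CPM in WT. The libraries with the higher sums were C3_KO replicates 3 and 4, S1pr1_KO replicate 3 and WT replicate 2. All 14 were highest in C3_KO replicate 3, which held 71.7% of their sum over the 12 libraries. Lce1a1, the Lce1 gene with the highest mean, was 0.0442, 0.321, 7.38 and 0.4765 CPM in C3_KO, 0.0864, 0.0243, 1.52 and 0.0929 CPM in S1pr1_KO, and 0.0669, 0.621, 0.0925 and 0.0819 CPM in WT. Lce1j reached 1.72 CPM in C3_KO replicate 3 and at most 0.0673 CPM in any other library. Its log2 fold change in C3_KO over WT, 4.60 (SE 1.90, edgeR adjusted p = 0.7646), became 0.14 without that library.

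Lce1m was the one envelope gene among the 33 tested with no count in a whole genotype. Its counts were 0 in all 4 S1pr1_KO libraries. Its level was 0.0354, 0.0169, 3.96 and 1.37 CPM in C3_KO, and 0, 2.20, 0.0687 and 0.120 CPM in WT. A count of 0 over the 4 S1pr1_KO libraries allows up to 0.0025 CPM at 3 counts over the group. Against that limit, Lce1m was at least 473-fold lower than the pooled C3_KO level of 1.18 CPM and at least 289-fold lower than the pooled WT level of 0.723 CPM, limits that cover counting error only. These limits became at least 153-fold without C3_KO replicate 3 and at least 28.8-fold without WT replicate 2, and WT replicate 1 also had no count. Lce1m did not pass edgeR's test (adjusted p = 0.2416 in S1pr1_KO against WT and 1.0 in S1pr1_KO against C3_KO), and DESeq2 called it lower in both (adjusted p = 0.00678 and 0.00536). The C3_KO and S1pr1_KO libraries of Lce1m did not overlap, as was the case for 0.838% of all genes tested in that direction. S1pr1_KO replicate 3 had 0 counts of Lce1m beside 13 other Lce1 genes with counts, while C3_KO replicate 3 had 1250 counts.

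The Lce3 genes, which human skin induces after barrier damage, together reached at most 0.141 CPM in 10 libraries. Their 6-gene sum was 0.0530, 0, 4.61 and 0.0411 CPM in C3_KO, 0.0455, 0, 2.82 and 0.0409 CPM in S1pr1_KO, and 0.141, 0.0327, 0.00529 and 0.0487 CPM in WT. Between the 2 high tumours, Lce3f reached 0.699 CPM (S1pr1_KO) and 0.903 CPM (C3_KO), and Lce3c 0.711 CPM (S1pr1_KO) and 1.35 CPM (C3_KO). The level in S1pr1_KO replicate 3 was 0.308 to 0.807 of that in C3_KO replicate 3 for the 6 Lce3 genes, and 0.0391 to 0.347 for the 13 Lce1 genes with a count in both. Lce6a, a single gene beside the Lce1 group, had 0.0995 CPM (S1pr1_KO) and 0.8995 CPM (C3_KO) in these tumours and at most 0.0583 CPM elsewhere.

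Sprr1a was the envelope gene with the highest level in WT tumours, and the only one of the 33 with a log2 fold change below 0 in C3_KO over WT. It encodes an SPRR protein that is also known from stressed and regenerating cells outside skin. Per length, its mean in WT was 20.2 ± 10.1 FPKM (fragments per kilobase of gene length and 1000000 counts, SD, n = 4), followed by Sprr2a2 at 2.20 ± 1.23, Sprr2a1 at 1.65 ± 0.914 and Tchh at 1.47 ± 1.38 FPKM. Each of the other 43 genes had a mean under 1 FPKM in WT. Sprr1a stood at 5.61, 0.747, 16 and 5.27 CPM in C3_KO, 4.00, 4.405, 62.5 and 2.74 CPM in S1pr1_KO, and 29.5, 5.74, 17.8 and 18.3 CPM in WT. In each knockout group 3 of the 4 libraries lay below all 4 WT libraries, while replicate 3 lay inside the WT range in C3_KO and above it in S1pr1_KO. The log2 fold change was -1.37 in C3_KO over WT (SE 1.05, edgeR adjusted p = 0.7754) and 0.05 in S1pr1_KO over WT (SE 1.03, edgeR adjusted p = 0.9876). limma-voom, which weights libraries by quality, called Sprr1a lower in S1pr1_KO than in WT (log2 fold change -1.91, adjusted p = 0.0336). It called 25.5% of all genes tested in that comparison.

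Sprr1b, an SPRR gene of squamous differentiation, was 0.314, 0.00282, 14.5 and 0.00686 CPM in C3_KO, 0.0728, 0.0162, 5.33 and 0.0297 CPM in S1pr1_KO, and 0.483, 0.00408, 0.0159 and 0.372 CPM in WT. Its 2 high knockout libraries exceeded every other library, and the remaining ones overlapped. The 13 Sprr2 genes summed to 5.48, 1.80, 273.3 and 3.39 CPM in C3_KO, 1.501, 2.07, 96.2 and 2.73 CPM in S1pr1_KO, and 19.5, 2.66, 14.4 and 20.0 CPM in WT. Sprr2a2, the most abundant, was 2.745, 0.842, 135.8 and 1.55 CPM in C3_KO, 0.523, 0.811, 49.0 and 1.37 CPM in S1pr1_KO, and 9.73, 1.35, 6.96 and 9.90 CPM in WT. Apart from the 2 high libraries, no knockout library reached the 3 higher WT libraries. Sprr2d, with 4.46 CPM in the high C3_KO tumour, 0.591 CPM in the high S1pr1_KO tumour and at most 0.0354 CPM elsewhere, had a log2 fold change of 6.58 in C3_KO over WT (SE 2.72, edgeR adjusted p = 0.7646), which was 0.22 without C3_KO replicate 3.

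Levels within the families are uncertain where the genes share sequence. Transcripts of Sprr2a1, Sprr2a2 and Sprr2a3 in GENCODE M21 shared 96.3%, 96.5% and 61.1% of their 50-base words with another of the 47 genes, and Sprr2a2 had 1.13 to 1.40 times the counts of Sprr2a1 in every library. Of the 47 genes, 23 shared over 10% of such words and 18 shared none. The reads of these 3 genes may be split or counted more than once, since the counting program is not given in the sources used here.

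In C3_KO against WT, the fitted values of the envelope genes leaned upwards with all 12 libraries and not without C3_KO replicate 3. Of the 33 tested, 32 had a log2 fold change above 0, as did 54.2% of all genes tested, and their median was 3.25 against 0.05 over all genes tested. At an unadjusted p under 0.05 edgeR listed 7 of the 33, all higher in C3_KO (Flg, Hrnr, Lce1e, Lce1i, Lce1j, Lor and Sprr2d), beside 6.23% of all genes tested in either direction and 3.62% in that one. All 7 were highest in C3_KO replicate 3, so they are not 7 independent results. The envelope genes share their high libraries, so counts of them are not counts of independent genes in any comparison. DESeq2 called 1 of the 33 (background 0.267%) and limma-voom called 0 (background 0.0163%). For none of the 33 did all C3_KO libraries lie above all WT libraries (background 1.32%) or below them (background 1.72%). C3_KO replicate 3 had the group's highest sum of these genes, so leaving it out lowers their C3_KO level by construction. Without it the median was 0.14 over the 34 genes then tested, with 18 above 0 and 16 below, against 0.04 over all genes tested. The 3 genes with the highest log2 fold changes were then Hrnr, Flg2 and Sprr2g, at 4.06, 3.29 and 2.43, while Sprr2a3, Sprr1a, Sprr2a2 and Sprr2a1 had the lowest, from -2.26 to -1.99. None of these 7 passed (edgeR adjusted p = 0.8871 for each), and they were picked out after their values were seen. At an unadjusted p under 0.05 edgeR then listed Hrnr as higher (background 2.66%) and 0 envelope genes as lower (background 2.36%). Sprr1a was the one envelope gene whose 3 C3_KO libraries all lay below WT (background 3.24%), and for 0 envelope genes did they all lie above (background 2.54%).

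In S1pr1_KO against WT, the median of the envelope genes changed sign when S1pr1_KO replicate 3 was left out. With all libraries 27 of the 33 had a log2 fold change above 0, as did 51.7% of all genes tested, and the median was 1.23 against 0.03 over all genes tested. In the fit of these 2 genotypes alone, where 17 envelope genes passed the filter, the median was 0.88. edgeR listed 3 of the 33 at an unadjusted p under 0.05, Crnn and Tchhl1 higher (background 7.69%) and Lce1m lower (background 7.78%). DESeq2 called 1 of the 33 (background 3.11%). No gene of the 33 had all S1pr1_KO libraries above (background 2.78%) or below (background 4.8%) the WT libraries. S1pr1_KO replicate 3 had the group's highest sum of these same genes, so leaving it out lowers their S1pr1_KO level by construction. The shares over all genes are not a matched reference, since the library left out is not the highest for genes in general. Without it, 32 of the 33 had a log2 fold change below 0, against 46.3% of all genes then tested, and Tchhl1 alone was above 0 (background 53.7%). The median was then -2.30 against 0.08 over all genes tested, or -2.22 with the 5 genes that had no S1pr1_KO count (Lce1f, Lce1g, Lce1i, Lce1l and Lce1m) set at 3 counts over the group.

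In that fit of 11 libraries edgeR called 4.25% of all genes tested but 0 of the 33 envelope genes. In 7 of them, Flg2, Ivl, Lce1a2, Lce1d, Lce6a, Lor and Sprr1a, all 3 S1pr1_KO libraries lay below all 4 WT libraries, a share of 21.2% beside 15.5% of all genes tested. The library left out was the highest of its group for each of these 7, so the share rests partly on that choice. At an unadjusted p under 0.05 edgeR listed 3 of the 33 as lower (Lce1a2, Lce1m and Sprr1a), a share of 9.09% beside 13.3% of all genes tested, and 0 as higher beside 13.5%. Sprr1a had a log2 fold change of -2.22 (SE 0.807, edgeR adjusted p = 0.1097). Without both high tumours, Sprr2a1 and Sprr2a2, which share most of their sequence, were called lower in S1pr1_KO than in WT (log2 fold changes -2.76 and -2.90, edgeR adjusted p = 0.0477 and 0.0467), beside 4.78% of all genes tested. That setting was chosen after the values were seen, and 25 envelope genes remained in it.

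Between the knockouts, 28 of the 33 had a log2 fold change below 0 in S1pr1_KO over C3_KO and 5 had one above 0 (Crnn, Sprr1a, Sprr4, Tchh and Tchhl1), against 46.2% of all genes tested above 0. The median was -2.13 over the 33 and -0.03 over all genes tested. edgeR listed 5 at an unadjusted p under 0.05, all lower (Flg2, Hrnr, Lce1j, Lce1m and Lor, background 1.63%), DESeq2 called 2 (background 0.372%) and limma-voom called 0 (background 0.0%). The median was 1.92 without C3_KO replicate 3 and -6.08 without S1pr1_KO replicate 3, and -2.23 without both, where edgeR called 0 of 25 envelope genes (background 0.0032%). The 5 genes above 0 are the same 5 that peaked in S1pr1_KO replicate 3. For most genes the replicate 3 libraries set both group means, so this match largely repeats the same values and is not a further result.

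**Figure D3:**
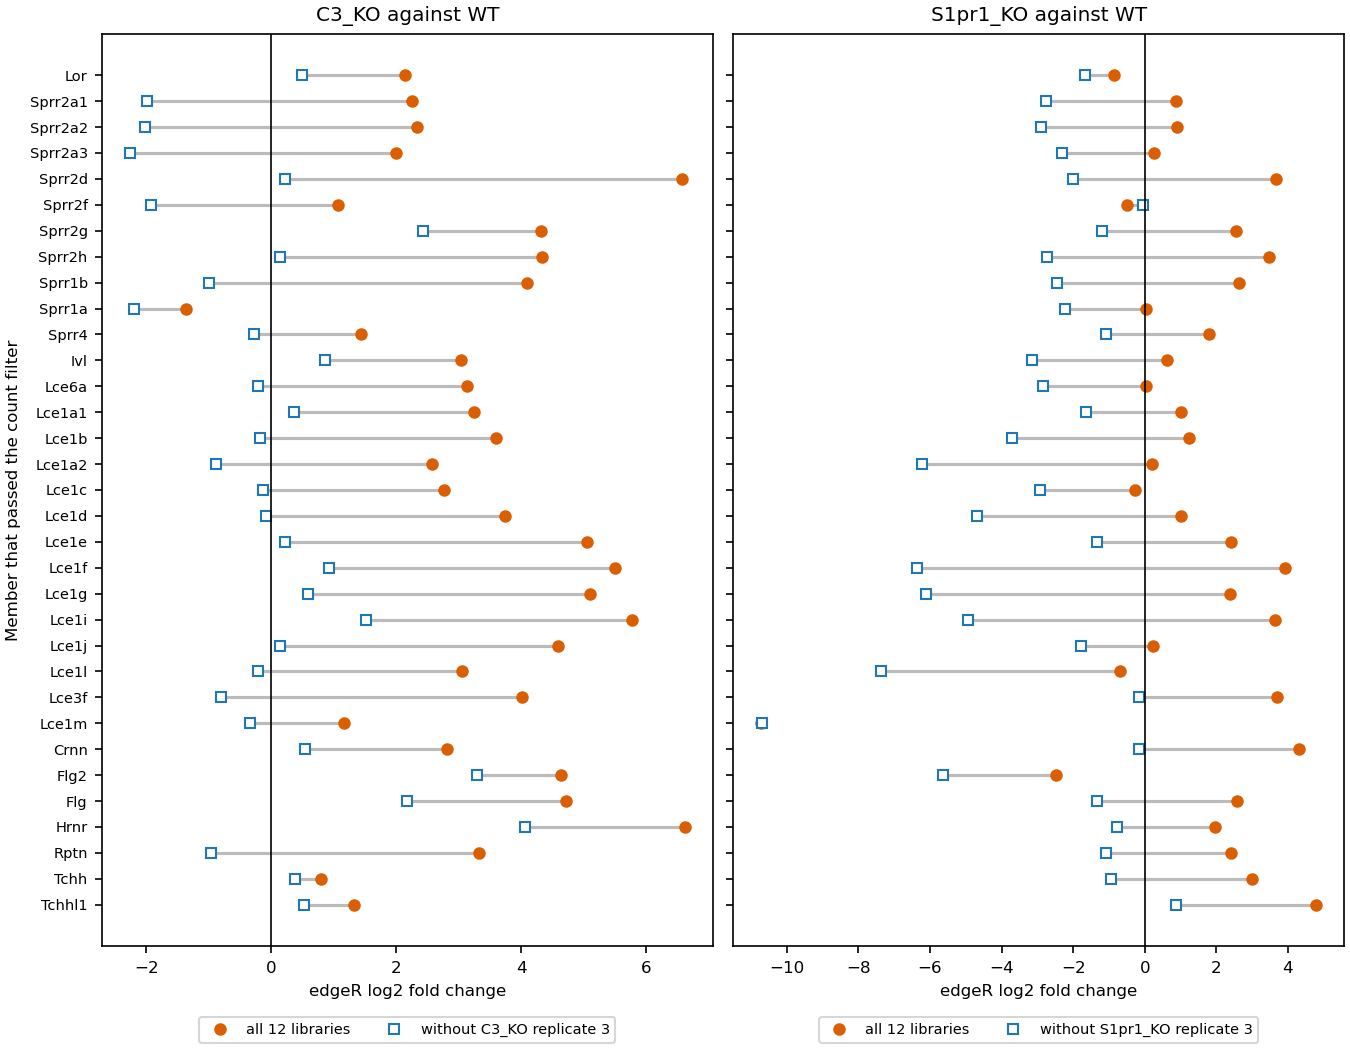
edgeR log2 fold change (horizontal axis) of each tested envelope gene with all 12 libraries (filled circles) and without the library with the group's highest summed level (open squares), for C3_KO against WT and S1pr1_KO against WT. In the first panel the open squares lie left of the filled circles on both sides of 0, with Hrnr farthest right at 4.06, and in the second panel 32 of 33 squares lie below 0. Fitted values of genes with no count in a group, such as Lce1m, are not bounds.

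The 2 tumours with the most envelope RNA differed in its composition. Tchh made up 55.1% of the summed envelope level in S1pr1_KO replicate 3 and 4.37% in C3_KO replicate 3. Flg, Flg2 and Hrnr made up 6.22%, 0.0819% and 0.452% in S1pr1_KO replicate 3, against 19.5%, 7.07% and 8.80% in C3_KO replicate 3. Per gene, the level in S1pr1_KO replicate 3 over that in C3_KO replicate 3 was 18.4 for Tchhl1, 9.95 for Tchh, 3.91 for Sprr1a and 3.23 for Crnn, but 0.0979 for Lor, 0.0404 for Hrnr and 0.00913 for Flg2. These are values of single libraries with no replicate check. C3_KO replicate 4 differed from both, with 30.3% of its summed level from Flg2, 26.8% from Flg and 13.5% from Hrnr, and only 4.32% from Tchh. In WT replicates 1 to 4, Sprr1a held 43.6%, 24.7%, 51.6% and 29.5% of the sum.

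Some keratins had the same highest libraries as an envelope gene, in pairs chosen after the values were seen. The 6 libraries highest for Tchh (S1pr1_KO replicates 3 and 1, C3_KO replicates 1 and 3, and WT replicates 4 and 1) were also the 6 highest for Tchhl1 and for Krt25, Krt28 and Krt73, keratins of the inner root sheath. Of the other inner root sheath keratins in the list, Krt27 and Krt72 shared 5 of these 6 libraries and Krt71 shared 4. Among the 3 highest libraries, Tchh shared 3 with Krt25, 2 with Krt27, Krt71, Krt72 and Krt73, and 1 with Krt28. Krt73 was 7.503, 0.0986, 1.31 and 0 CPM in C3_KO, 1.69, 0.0378, 58.3 and 0.2935 CPM in S1pr1_KO, and 3.54, 0.257, 0.145 and 7.24 CPM in WT. The 4 libraries highest for Flg2 (C3_KO replicates 3, 4 and 1, and WT replicate 2) were the 4 highest for Krt77, a keratin of suprabasal epidermis and sweat ducts, and the genes shared 4 of their 6 highest. Krt77 was 0.811, 0.265, 34.7 and 15.1 CPM in C3_KO, 0.0227, 0.0541, 0.0468 and 0.0297 CPM in S1pr1_KO, and 0.102, 6.60, 0.3065 and 0.1705 CPM in WT. The 3 highest libraries for Flg2 (C3_KO replicates 3 and 4, and WT replicate 2) were also the 3 highest for Lce1m and Lor, each of which shared 4 of the 6 highest with Flg2.

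**Figure D4:**
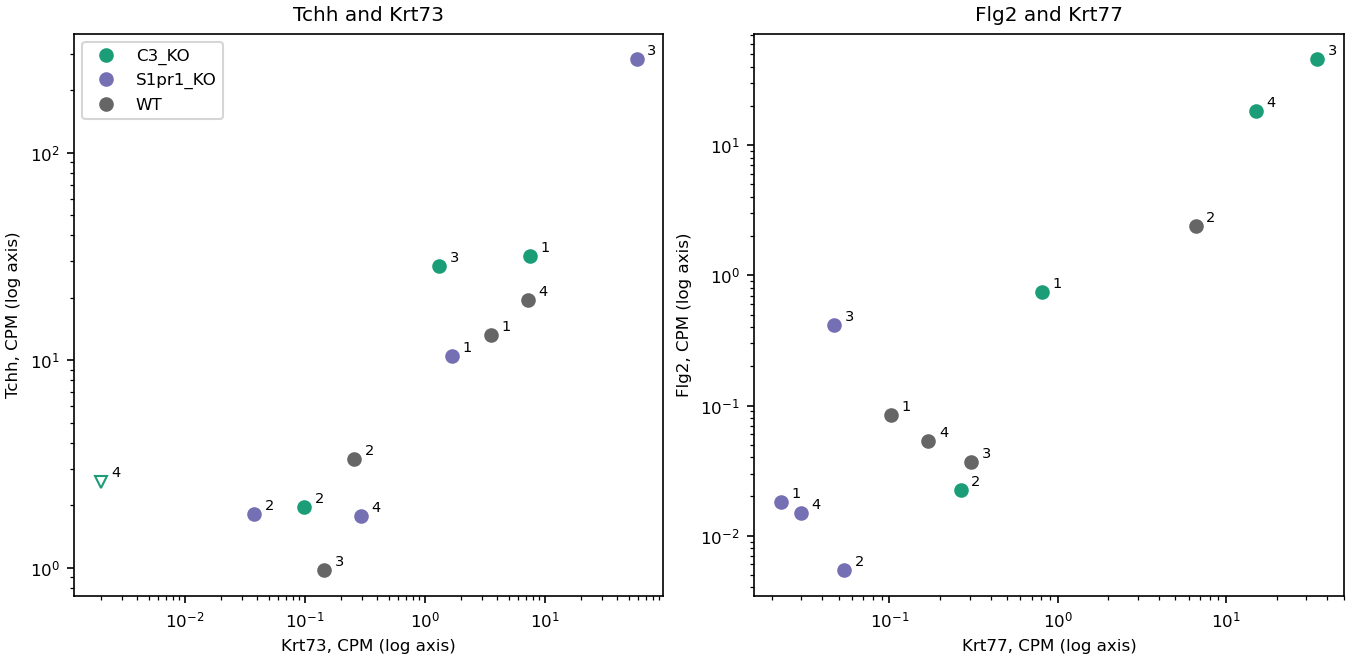
Tchh against Krt73 and Flg2 against Krt77 in the 12 libraries, in CPM on log axes, coloured by genotype and numbered by replicate, with an open triangle for a Krt73 count of 0. S1pr1_KO replicate 3 lies at the top right in the first panel (Tchh 281.4 CPM) and C3_KO replicate 3 in the second (Flg2 45.8 CPM), where S1pr1_KO replicate 3 holds 0.0468 CPM of Krt77.

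The remaining machinery of cornification was read from lists, none of whose genes was called by edgeR in any of the 3 comparisons (background 0.0% in each). The cross-linking transglutaminases Tgm1, Tgm3 and Tgm5 summed to 16 to 120.7 CPM in C3_KO, 9.99 to 40.5 CPM in S1pr1_KO and 12.3 to 16.7 CPM in WT, and Tgm1 reached 115.8 CPM in C3_KO replicate 3. Spinous and granular layer markers summed to 731.6 CPM in C3_KO replicate 3 and to 374.7 CPM in S1pr1_KO replicate 3, against at most 225.7 CPM in any other library. Of these 12 markers, 8 were highest in C3_KO replicate 3 and 1 in S1pr1_KO replicate 3. In C3_KO replicate 3, Krt1 and Krt10 held 176.0 and 177.6 CPM of the sum. Calml3 was low there, at 12.25 CPM against 14.59 to 62.91 CPM in the other 10 libraries. Ly6d (18.47 CPM) and Krt2 (0.0253 CPM) lay there inside the range of those 10. Wound-type keratins (Krt6a, Krt6b, Krt16 and Krt17) summed to 693.8 CPM in C3_KO replicate 3 and to 383.4 CPM in S1pr1_KO replicate 3, against at most 141.9 CPM elsewhere. Of 13 horny layer proteases and inhibitors 12 were highest in 1 of these 2 tumours, among 13 lipid barrier enzymes 11 were, and among 8 desmosomal plakins and plaque proteins 6 were. Their sums in C3_KO replicate 3 and S1pr1_KO replicate 3 were 707.7 and 831.1 CPM for the proteases and inhibitors, against at most 628.6 CPM elsewhere. Lipid barrier enzymes summed to 336.3 and 287.6 CPM, against at most 292.5 CPM elsewhere. The desmosomal genes summed to 1303 and 1332 CPM, against at most 1343 CPM elsewhere. Single genes weighed most in these sums: St14 (mean 372.3 CPM), Abhd5 and Slc27a4 (121.2 and 88.0 CPM), and Jup (407.8 CPM). Gene by gene, these tumours were the 2 highest libraries for 10 of the 13 proteases and inhibitors. That held for 7 of the 13 lipid barrier enzymes and for 2 of the 8 desmosomal genes. Of 15 regulators of cornification, such as Klf4, Grhl3 and Trp63, 9 were highest in 1 of these tumours. Their sum ranged from 984.1 to 1321 CPM in C3_KO, 1008 to 1365 CPM in S1pr1_KO and 974.6 to 1503 CPM in WT, so that the library totals of the regulators overlapped. Ehf and Gata3, with means of 362.0 and 243.7 CPM, weighed most in these totals. For 2 of the 15 regulators the same tumours were the 2 highest libraries. For the other 19 genes of the epidermal differentiation complex the summed ranges were 587.1 to 1474 CPM in C3_KO, 515 to 1702 CPM in S1pr1_KO and 1150 to 1353 CPM in WT. S100a11 and S100a6, with means of 394.1 and 239.3 CPM, weighed most in these sums. Of the 19 genes, 5 were highest in C3_KO replicate 3 and 8 in S1pr1_KO replicate 3. Crct1 reached 6.31 CPM (C3_KO) and 23.4 CPM (S1pr1_KO) in these tumours and at most 0.97 CPM elsewhere. No share over all genes was taken beside any of these counts of highest libraries.

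Markers of other cell types were also high in these 2 libraries, and their part in the results was not tested. All 16 hair shaft and root sheath markers in the table were highest in S1pr1_KO replicate 3. Their sum was 207.6 CPM there and 37.9 CPM in C3_KO replicate 3, and it did not exceed 26.7 CPM elsewhere. All 7 milk protein genes were highest in C3_KO replicate 3, where they summed to 87590 CPM, and reached at most 5945 CPM in any other library. Of 10 neutrophil markers 8 were also highest there, with a sum of 5891 CPM, of which 5786 CPM were Ltf, lactoferrin, which is also a milk protein. The other 9 summed to 105.3 CPM in C3_KO replicate 3 and to 37.3 CPM in S1pr1_KO replicate 3, and did not exceed 16.8 CPM elsewhere. In S1pr1_KO replicate 3 most of this sum came from S100a8 (28.8 CPM) and S100a9 (4.70 CPM), which also belong to the epidermal differentiation complex list. Retnlg, Cxcr2, Csf3r, Ly6g, Camp, Ngp and Mmp8 lay there inside the range of the other 10 libraries. Basal markers such as Krt5 and Krt14, shared by skin and mammary basal cells, had sums of 1423 CPM (C3_KO replicate 3) and 1214 CPM (S1pr1_KO replicate 3), and of 494.7 to 879.1 CPM elsewhere. The 5 luminal epithelial markers summed to 2605 to 5300 CPM in C3_KO, 2046 to 4612 CPM in S1pr1_KO and 2767 to 6182 CPM in WT, with overlap among all 3.

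By the sums of the other marker lists, the 2 high tumours were inside or close to the range of the other 10. The 6 sebocyte markers summed to 4.70 to 8.38 CPM in C3_KO, 2.95 to 6.88 CPM in S1pr1_KO and 4.35 to 7.91 CPM in WT. Of these 6 genes, 4 were highest in C3_KO replicate 3 and 0 in S1pr1_KO replicate 3. Among the 4, Elovl3 reached 1.17 CPM there and at most 0.928 CPM in the 10 other libraries, and Awat1 0.212 and 0.0823 CPM. Melanocyte markers summed to 2.77 to 7.20 CPM in C3_KO, 3.87 to 6.995 CPM in S1pr1_KO and 2.96 to 5.94 CPM in WT, nearly all from Pmel, with the defining genes Tyr and Tyrp1 at no more than 0.0297 CPM in any library. The keratins of oral and oesophageal epithelium (Krt4, Krt13 and Krt76) summed to 0.792 to 3.69 CPM in C3_KO, 1.27 to 6.31 CPM in S1pr1_KO and 0.452 to 1.74 CPM in WT, with S1pr1_KO replicate 2 the highest. Myoepithelial and smooth muscle markers were highest in WT replicate 4. Salivary gland markers were highest in S1pr1_KO replicate 1 (152400 CPM) and low in both high tumours (8.20 CPM for C3_KO, 44.15 CPM for S1pr1_KO).

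**Figure D5:**
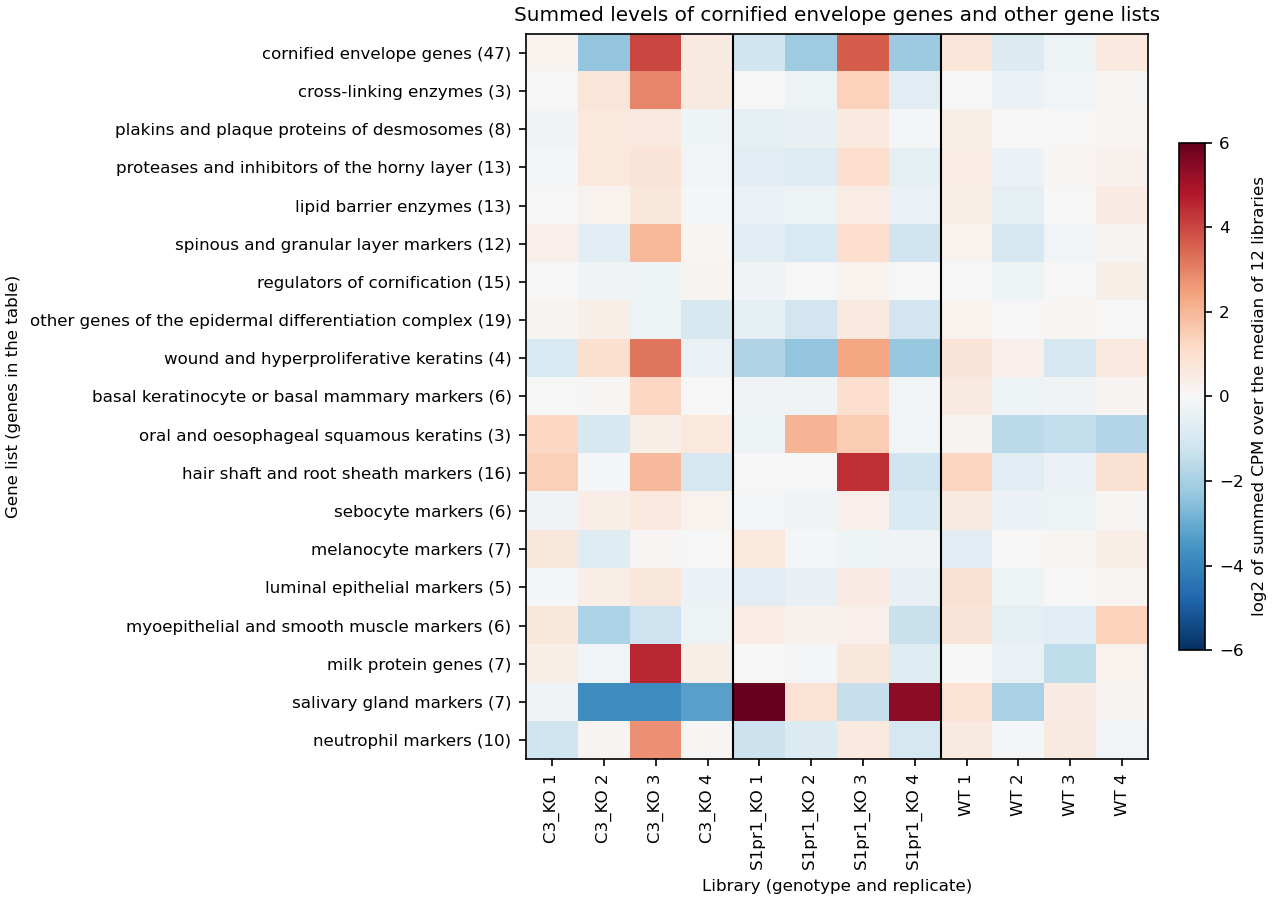
Summed CPM of the envelope genes (top row) and of 18 other gene lists in each library, as the log2 ratio to the median of the 12 libraries, by colour (values beyond 6 in either direction take the end colours). The top row, the cross-linking enzymes, the spinous and granular layer markers and the wound keratins are red in C3_KO replicate 3 and S1pr1_KO replicate 3, the hair markers are reddest in S1pr1_KO replicate 3 and the milk protein genes in C3_KO replicate 3.

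The promoters of these genes were read for motifs known from epidermal genes. Flg and Tchh lie 148.6 kb apart and peaked in different tumours, each peak being a single library. Whether a motif goes with the tumour in which a gene peaks was not tested. RefSeq promoters of GRCm38.p6 matched 43 of the 47 genes by symbol, and the 250 bases before each start were searched on both strands. The letters of the TATA box (TATAAA) were present, at any position and on either strand, in 20 of 43 (46.5%), beside 12.4% of 32851 promoters of the same length. The AP-1 motif (TGANTCA), bound by Fos and Jun proteins, was present in 16 of 43 (37.2%), beside 6.75%. The KLF motif (CCACCC) was present in 10 of 43 (23.3%), beside 28.1%. The AP-1 motif was found in 9 of 14 Sprr promoters, in 5 of 7 S100-fused type promoters and in both Lor and Ivl, but in 0 of 20 Lce promoters. A promoter with a match on either strand counted once. A match is a description of the letters and not a measured site, and the Sprr2 and Lce promoters derive from gene duplication, so they are not independent.

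The promoters of 4 genes with different patterns across the tumours are given, 5′ to 3′ on the strand of the gene, with matches to the 3 motifs in capitals. They are those of Flg (highest in C3_KO replicate 3), Tchh (highest in S1pr1_KO replicate 3) and Lce1m (no count in S1pr1_KO). The fourth is Sprr1a, the most abundant envelope gene within WT, though its own highest library was S1pr1_KO replicate 3. Flg lies at chr3:93273296-93273545 on the plus strand, Tchh at chr3:93442080-93442329 on the plus strand, Lce1m at chr3:93019062-93019311 on the minus strand and Sprr1a at chr3:92485882-92486131 on the minus strand.
Flg: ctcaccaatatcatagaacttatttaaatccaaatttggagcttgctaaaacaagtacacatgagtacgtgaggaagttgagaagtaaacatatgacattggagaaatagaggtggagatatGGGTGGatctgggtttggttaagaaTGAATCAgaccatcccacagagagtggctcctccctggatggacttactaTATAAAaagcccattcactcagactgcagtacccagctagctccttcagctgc
Tchh: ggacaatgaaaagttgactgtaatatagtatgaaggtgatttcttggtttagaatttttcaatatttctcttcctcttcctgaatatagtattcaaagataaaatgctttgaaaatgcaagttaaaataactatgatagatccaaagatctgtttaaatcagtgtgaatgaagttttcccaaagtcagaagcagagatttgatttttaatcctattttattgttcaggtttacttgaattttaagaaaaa
Lce1m: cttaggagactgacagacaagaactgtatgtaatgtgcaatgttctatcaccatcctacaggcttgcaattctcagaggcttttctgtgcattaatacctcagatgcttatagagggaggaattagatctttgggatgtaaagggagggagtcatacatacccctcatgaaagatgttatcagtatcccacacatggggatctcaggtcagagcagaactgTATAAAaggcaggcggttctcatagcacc
Sprr1a: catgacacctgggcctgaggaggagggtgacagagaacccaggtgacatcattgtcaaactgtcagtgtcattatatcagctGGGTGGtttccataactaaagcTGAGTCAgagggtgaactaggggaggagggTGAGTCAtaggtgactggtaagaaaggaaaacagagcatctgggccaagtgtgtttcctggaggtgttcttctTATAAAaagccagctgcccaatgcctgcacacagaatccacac
The Flg promoter holds TATAAA beginning 53 bases before the start, TGAATCA beginning 103 bases before it and the reverse complement of the KLF motif at 128 bases. The Sprr1a promoter holds TATAAA at 43 bases and TGAGTCA at both 116 and 146 bases before the start, with the reverse complement of the KLF motif at 168 bases. The Lce1m promoter holds only TATAAA, at 29 bases, and the Tchh promoter holds none of the 3 motifs in this window. No match overlaps another in these 4 promoters.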

How the data were processed

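RNA was sequenced from 12 tumours, 4 per genotype. The deposited gene counts and the authors' FPKM values stand in a table each, and FPKM equalled count × 1000000000 / (gene length × library total) for 682317 of 682320 deposited values (relative tolerance 0.0001). StringTie and the build GRCm39 (mm39) are named per the submitters' processing notes, and for the aligner, counter and strand setting the sources used here give nothing. Of counts from 1 to 50, 60.2% to 64.4% per library were even, and whether mates of a pair were counted separately was not tested. Limits from 3 counts cover counting error only.

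Counts as deposited were tested with edgeR 4.0.16 in R 4.3.3 (filterByExpr, TMM, robust quasi-likelihood fit of all 12 libraries with a mean per genotype, 9 residual degrees of freedom), adjusted by Benjamini-Hochberg over 30660 genes and called at an adjusted p under 0.05. The script was tested on simulated data with less spread than these libraries and no dominant library, so that test does not cover groups like these. The labels do not say whether tumours came from separate mice, so p-values measure the spread between these samples, which may be technical. Alternatives were DESeq2 1.42.0, limma-voom and limma 3.58.1 on log2(FPKM + 1) and log2(FPKM + 0.1), other scalings and filters, a fit of the 2 genotypes compared, and leaving out each library. Named envelope genes were the 12 with the highest mean CPM, the highest 2 of each family and the 4 of smallest p in each comparison. Of each other list, up to 3 genes of highest mean CPM were to be named, and further genes named were chosen after their values were seen. The 18 other lists hold 159 genes, 158 of them in the table. Members and lists were chosen with earlier results of these data known.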

Additional observations from a re-analysis of the deposited data

Results flagged for a closer look

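For 21 envelope genes named by the rule, each group of 4 libraries was examined for a library whose gap to its nearest neighbour was a larger share of the group's range than Dixon's 95% critical value for 4 samples allows. In 39 of 63 groups the highest library stood apart in this way, a share of 61.9%, beside 7.55% over all genes tested. Chance flags about 1 in 20 groups, counting either end, where values are normally distributed, which CPM are not. Only the highest library was counted here, so the matching rate is lower. The 21 genes were named partly for a high mean or a small p, to which such libraries contribute, and they share libraries, so these are not 39 independent events.

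C3_KO replicate 3 stood apart for 16 genes. Of the S100-fused type genes it held 126.5 CPM of Flg, 56.99 CPM of Hrnr, 16.03 CPM of Rptn and 0.5131 CPM of Crnn. Of the envelope precursors and Lce genes it held 12.67 CPM of Lor, 3.402 CPM of Ivl, 7.376 CPM of Lce1a1, 1.723 CPM of Lce1j, 1.349 CPM of Lce3c, 0.9026 CPM of Lce3f and 0.8995 CPM of Lce6a. Of the Sprr genes it held 135.8 CPM of Sprr2a2, 99.78 CPM of Sprr2a1, 23.99 CPM of Sprr2a3, 4.463 CPM of Sprr2d and 14.52 CPM of Sprr1b.

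S1pr1_KO replicate 3 stood apart for 19 genes. Of the S100-fused type genes it held 281.4 CPM of Tchh, 7.009 CPM of Tchhl1, 31.75 CPM of Flg, 0.4183 CPM of Flg2, 2.305 CPM of Hrnr, 8.314 CPM of Rptn and 1.656 CPM of Crnn. Of the precursors and Lce genes it held 1.24 CPM of Lor, 0.7255 CPM of Ivl, 1.524 CPM of Lce1a1, 0.7109 CPM of Lce3c, 0.6992 CPM of Lce3f and 0.09947 CPM of Lce6a. Of the Sprr genes it held 62.5 CPM of Sprr1a, 5.327 CPM of Sprr1b, 48.99 CPM of Sprr2a2, 37.54 CPM of Sprr2a1, 6.609 CPM of Sprr2a3 and 0.5909 CPM of Sprr2d.

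WT replicate 2 stood apart within WT for 4 genes, with 2.501 CPM of Lor, 2.411 CPM of Flg2, 2.203 CPM of Lce1m and 0.6207 CPM of Lce1a1.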

How the results depend on the processing

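The number of genes called in C3_KO against WT was 0 with edgeR, 82 with DESeq2, 5 with limma-voom and 1 with limma on log2(FPKM + 1), and 0 to 8 when 1 library was left out. In S1pr1_KO against WT it was 0 with edgeR, 955 with DESeq2, 7828 with limma-voom, 10 with no filter, 23 with CPM of at least 0.5 in 4 libraries and 68 in a fit of those 2 genotypes. It was 33 and 43 with limma on log2(FPKM + 1) and log2(FPKM + 0.1), and 0 to 1330 when 1 library was left out, with 1330 without S1pr1_KO replicate 3. In S1pr1_KO against C3_KO it was 0 with edgeR, 114 with DESeq2 and 0 to 3 when 1 library was left out. Without C3_KO replicate 3 and S1pr1_KO replicate 3 together, a setting chosen after seeing the data, 1494 genes were called in S1pr1_KO against WT and 1 in S1pr1_KO against C3_KO.

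The number of envelope genes called was 1 with DESeq2 in C3_KO against WT, 1 with DESeq2, 1 with limma-voom and 2 without both libraries in S1pr1_KO against WT, and 2 with DESeq2 in S1pr1_KO against C3_KO. DESeq2 gave Hrnr 6.68 (log2, adjusted p = 0.0156) in C3_KO over WT, Lce1m -9.83 (adjusted p = 0.00678) in S1pr1_KO over WT, and Lce1m -11.07 (adjusted p = 0.00536) and Flg2 -7.115 (adjusted p = 0.0280) in S1pr1_KO over C3_KO. Over all alternatives the adjusted p ran from 0.0156 to 0.9989 for Hrnr in C3_KO over WT, from 0.00678 to 0.6381 for Lce1m in S1pr1_KO over WT, and up to 1.0 for Lce1m and Flg2 in S1pr1_KO over C3_KO.

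The median log2 fold change ran from 0.14 to 4.16 in C3_KO over WT, from -2.30 to 2.40 in S1pr1_KO over WT and from -6.08 to 1.92 in S1pr1_KO over C3_KO when 1 library was left out. It was -0.032 in C3_KO over WT and -2.44 in S1pr1_KO over WT without both libraries, and -1.81 in S1pr1_KO over WT with limma-voom. In C3_KO over WT, where edgeR gave 3.25, it was 0.97 with limma-voom, 0.46 with limma on log2(FPKM + 1) and 1.13 on log2(FPKM + 0.1). In S1pr1_KO over WT (edgeR 1.23) the FPKM fits gave 0.10 and 0.23, and in S1pr1_KO over C3_KO (edgeR -2.13) -0.42 and -0.87. Fold changes of low genes are understated on those FPKM scales. In S1pr1_KO over WT, limma-voom reversed Tchhl1 (-0.29), Crnn (-1.11) and Tchh (-0.84). When 1 library was left out, Crnn ran from -0.15 to 5.08 and Tchh from -0.94 to 3.73, both lowest without S1pr1_KO replicate 3, and without both libraries they were -0.15 and -0.94. Under alternatives the 12 fold changes had 246 values with an adjusted p, of which 235 kept their direction and their side of the threshold, some of them near 0, such as Lce1j at 0.14 and Sprr2d at 0.22 in C3_KO over WT without C3_KO replicate 3. DESeq2 gave no adjusted p for another 4 (Lce1j and Sprr2d in C3_KO over WT, Tchhl1 and Crnn in S1pr1_KO over WT).

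No paired analysis was possible because the labels give no shared replicate number, litter or batch. Each group has 4 libraries, and in each knockout 1 library dominates. Levels under 0.0136 CPM can lie below 3 counts.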
